A study of Homo sapiens with 9 samples.

Results

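Empty liposomes, the lipid carrier without its cargo, were compared with dilution buffer in Hep3B tumours of the mouse liver. The comparison holds 6 of the 9 arrays of the study, 3 from each control group, chosen by their sample names. All 15388 named genes that passed a filter on detection were tested. Hep3B is an established human hepatocellular carcinoma line, placed by surgery in the liver of Nod/Scid mice and grown for about 5 weeks. Each mouse was injected intravenously 1 time with dilution buffer, with empty liposomes or with MRX34, liposomes that hold a mimic of miR-34a, once serum AFP matched a tumour of about 80 to 100 mg. Whole tumours were taken 24 hours later, and their total RNA was labelled with biotin and hybridised to Illumina arrays. Every group therefore carried the same tumour line, host strain and route of injection, and the liposome group differed from the buffer group by the carrier. The sources used here give no lipid composition, dose, sex or age, and leave unsaid if every array stands for its own animal. All p-values therefore measure the spread between these samples, which may be technical in part.

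Injected liposomes are cleared largely by the liver, where resident macrophages (Kupffer cells) and hepatocytes take them up by endocytosis. The particles are broken down in endosomes and lysosomes, and their lipids join the cell's own phospholipid, cholesterol and triglyceride pools. Lipid particles can also be sensed by pattern recognition receptors, which signal to inflammatory and interferon-stimulated genes, and circulating cytokines then induce acute phase proteins in hepatocytes. Nod/Scid mice lack mature B and T cells and have impaired innate cells. The host cells are murine, and the probes were designed for human transcripts.

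No gene was called between the 2 control groups at 24 hours in the fit described here. With limma and Benjamini-Hochberg adjustment, 0 of 15388 genes (0%) were called at an adjusted p under 0.05, and the smallest adjusted p was 0.766, shared by 2365 genes. Before adjustment, 422 genes (2.74%) had a p under 0.05 with the higher level after liposomes and 464 (3.02%) with the lower level, together 886 genes (5.76%). Thus 47.6% of them were higher; when the arrays were scaled to a common median instead, the counts were 258 and 557 and 31.7% were higher. That scaling also moved the median difference of all genes from -0.03 to -0.12 log2 units. With array weights, which gave empty liposomes 1 a weight of 0.262, 6 genes were called, and 1782 were higher and 1900 lower before adjustment. Leaving out single arrays also moved these counts. They were 199 higher and 259 lower without dilution buffer 2, 319 and 222 without empty liposomes 1, and 834 and 1199 without empty liposomes 2.

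The arrays set a limit on what could have been seen. A level here is the log2 of the background-corrected, normalized signal, and a difference is the mean of the 3 liposome arrays minus that of the 3 buffer arrays. The median standard error of a difference was 0.275 and the median half-width of its 95% interval 0.614 log2 units. For 9642 genes (62.7%) the whole interval lay within 1 log2 unit, a 2-fold change, in either direction. Among the 9734 genes above background on all 6 arrays the share was 74.6%. All liposome arrays lay above all buffer arrays for 940 genes (6.11%) and below them for 854 (5.55%), together 11.7%. With 3 arrays against 3, an exact permutation test of a single gene cannot go below p = 0.1.

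Empty liposomes 1 stood apart from the other 5 arrays. Its mean background-subtracted intensity was 163, against 249 to 616 on the others, and 31.2% of its named probes lay above background. On the first principal component, with 53.7% of the variance, it lay at 84.2 and the others between -29.9 and -3.37. The median absolute difference of a gene was 0.218 to 0.345 log2 units between 2 buffer arrays, 0.345 to 0.487 between 2 liposome arrays and 0.244 to 0.491 between arrays of different groups. Without empty liposomes 1 the last range was 0.244 to 0.358. The median over pairs was 0.258 within buffer, 0.372 within liposomes and 0.331 between the groups, or 0.295 between the groups without empty liposomes 1.

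**Figure D1:**
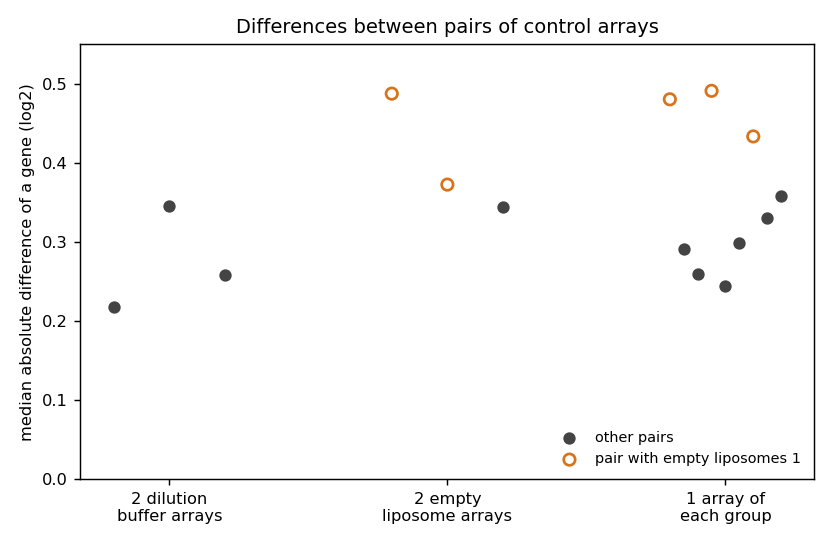
Median absolute log2 difference over all tested genes for each pair of control arrays (vertical axis), by kind of pair. Open circles are pairs that include empty liposomes 1, which reach from 0.372 to 0.491. Pairs between the groups without that array lie between 0.244 and 0.358.

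The 2 liver enzymes GNMT (glycine N-methyltransferase) and OTC (the urea cycle enzyme ornithine transcarbamylase) varied more within the groups than between them. GNMT stood at 8.09, 10.67 and 15.16 on the buffer arrays and at 14.60, 12.43 and 11.54 on the liposome arrays. Dilution buffer 3 and empty liposomes 1, the arrays with the lowest mean intensity of the 6, were the highest for GNMT in their groups. The groups overlapped. The difference was 1.55 log2 units with a 95% interval of -2.16 to 5.25, and for OTC it was 0.94 (-1.76 to 3.64). The part of these transcripts in other results was not tested beyond a fit with their mean level as a covariate. In RNA of whole tumours, fewer cells of a type and less RNA per cell cannot be told apart.

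The tumour markers AFP and GPC3 were bright on every array, and their groups overlapped. AFP, the fetal plasma protein alpha-fetoprotein that marks this tumour, measured 15.37, 15.47 and 15.27 after buffer and 15.17, 15.31 and 15.25 after liposomes. The groups overlapped, and the difference of -0.12 had a 95% interval of -0.51 to 0.26. AFP lies near the top of the scale, where normalized arrays are held close together. GPC3, the cell-surface proteoglycan glypican-3, differed by 0.23 (-0.37 to 0.82), and H19, an imprinted fetal RNA, by -0.22 (-0.70 to 0.26). ALB, serum albumin, was also at the top of the scale, with 15.54, 15.28 and 15.54 after buffer and 15.26, 15.21 and 15.47 after liposomes. These levels are those of a hepatocellular tumour, as labelled. Over the oncofetal list, 5 of 15 tested genes were higher and 10 lower, with a median of -0.18 log2 units against -0.03 over all genes, or -0.08 without empty liposomes 1. PEG10, an imprinted retrotransposon-derived gene, had the smallest p of that list, at 12.38, 13.10 and 13.06 after buffer and 12.39, 12.37 and 11.31 after liposomes. Its groups overlapped, and the difference was -0.83 (SE 0.34), or -0.47 without empty liposomes 3. IGF2BP1, an RNA-binding protein, did not overlap, with a difference of -0.35 at levels of 6.36 and below.

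**Figure D2:**
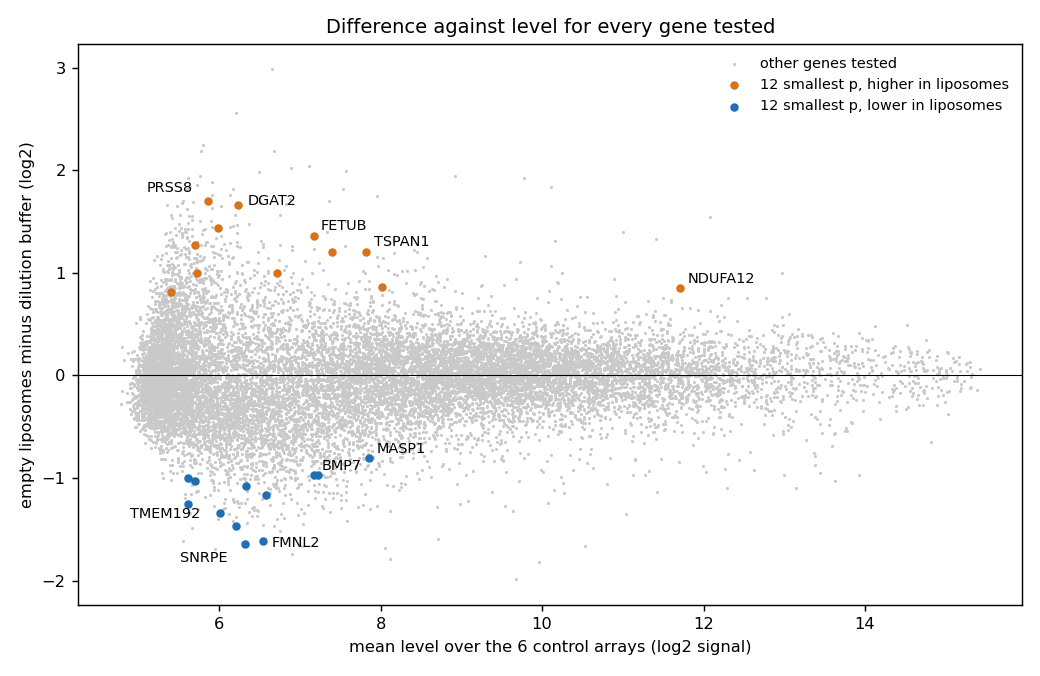
Difference, empty liposomes minus dilution buffer (log2, vertical axis), against the mean level over the 6 control arrays (log2 signal, horizontal axis) for the 15388 genes tested. Orange points are the 12 genes with the smallest p among the higher ones and blue points the 12 among the lower ones. None of them passed the adjusted threshold, and most lie at low levels.

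The 24 genes with the smallest p, 12 in each direction, are described with this in view: each had an adjusted p of 0.766. The groups did not overlap for any of the 24, which follows in part from how they were chosen. Only 10 of the 24 lay above background on all 6 arrays, 7 of them higher and 3 lower after liposomes.

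DGAT2, which catalyses the last step of triglyceride synthesis, measured 5.33, 5.39 and 5.49 on the buffer arrays and 7.54, 6.83 and 6.82 on the liposome arrays. All 3 liposome arrays lay above the buffer arrays. The buffer levels were close to the lowest signals above background on those arrays, 5.19, 5.11 and 5.47. The difference was 1.66 log2 units (SE 0.29), or 3.16-fold, and ran from 0.81 to 1.78 over 27 alternative settings. The MRX34 arrays, whose tumours also received a liposome, stood at 7.24, 6.34 and 6.58. FETUB, the liver-secreted protease inhibitor fetuin-B, measured 6.81, 6.38 and 6.28 after buffer and 7.83, 7.73 and 8.00 after liposomes. The lowest liposome array exceeded the highest buffer array by more than the spread within either group, and the difference was 1.36 (SE 0.23). FETUB on the MRX34 arrays was 7.69, 7.25 and 7.82. Any difference of MRX34 from buffer shares the 3 buffer arrays with this comparison, so the MRX34 levels are given here as values only.

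TSPAN1, a tetraspanin of epithelial membranes, measured 7.25, 7.05 and 7.36 after buffer and 9.003, 8.22 and 8.05 after liposomes, a difference of 1.20 (SE 0.26). Empty liposomes 1 was the highest array, and the other liposome arrays also exceeded every buffer array. NDUFA12, an accessory subunit of respiratory complex I, was the brightest of the 24 genes, at 11.12, 11.34 and 11.39 after buffer and 12.29, 11.79 and 12.31 after liposomes. Its difference was 0.85 (SE 0.21), and the MRX34 arrays stood at 12.53, 12.37 and 12.20. PRG4, the secreted lubricating glycoprotein lubricin, measured 7.86, 7.65 and 7.26 after buffer and 8.21, 8.48 and 8.66 after liposomes. Its difference was 0.86 (SE 0.22), a second probe of the gene differed by 0.55, and the MRX34 arrays, at 7.80, 7.67 and 7.89, lay below all liposome arrays. CRIP1, a small LIM-domain protein, differed by 1.21 (SE 0.30).

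Other genes of the higher group rested on dim or disagreeing probes. PRSS8, the epithelial serine protease prostasin, measured 5.27, 5.09 and 4.66 after buffer, where 1 of 3 arrays was above background, and 7.28, 6.71 and 6.12 after liposomes. The difference was 1.70 (SE 0.30), and the MRX34 arrays, at 5.34, 5.70 and 5.45, lay below every liposome array. CTBP2, a transcriptional corepressor, differed by 1.44 through its brightest probe, while its other 2 probes were below the filter and differed by 0.11 and -0.25. DIP2A differed by 1.00 through 1 probe, but 3 other probes past the filter differed by -0.29, -0.35 and -0.87, so the gene has no settled direction. FIGNL2 (1.00) and CISD3, a mitochondrial iron-sulphur protein (1.27), were each above background on 1 buffer array. RETNLB, a secreted resistin-like protein, was above background on no buffer array and on 2 of 3 liposome arrays. Its difference was 0.82 (SE 0.20).

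Among the lower genes, BMP7, a secreted bone morphogenetic protein, measured 7.93, 7.38 and 7.68 after buffer and 6.72, 6.56 and 6.79 after liposomes. The liposome arrays were tightly grouped below every buffer array, and the difference was -0.97 (SE 0.20). The MRX34 arrays, at 7.78, 7.82 and 7.83, lay within the range of the buffer arrays. MASP1, a serine protease of the lectin pathway of complement, measured 8.27, 8.34 and 8.18 after buffer and 7.57, 7.43 and 7.37 after liposomes. Its difference was -0.81 (SE 0.19), and its 3 other probes past the filter, all dimmer, differed by -0.60, -0.15 and -0.41. TSNAX, translin-associated factor X, an RNA-processing partner of translin, measured 8.09, 7.47 and 7.59 after buffer and 6.64, 6.83 and 6.74 after liposomes. Its 2 probes differed by -0.98 and -0.72, so both lay on the same side.

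The lower genes also included transcripts near the detection limit after liposomes. TMEM192, a lysosomal membrane protein, measured 6.51, 6.63 and 6.89 after buffer and 5.28, 5.54 and 5.21 after liposomes, where 1 of 3 arrays was above background. The groups lay apart, with a difference of -1.34 (SE 0.22). FMNL2, a formin that builds actin filaments, measured 6.95, 7.37 and 7.73 after buffer and 5.33, 6.44 and 5.43 after liposomes, a difference of -1.62 (SE 0.33). PNPLA3, a lipid-droplet lipase of hepatocytes, measured 6.05, 5.93 and 6.35 after buffer and 4.80, 5.54 and 4.99 after liposomes. It differed by -0.997 (SE 0.24) and stood at 4.88, 5.09 and 5.23 on the MRX34 arrays. FAM162B measured 7.12, 7.03 and 7.34 after buffer and 5.47, 6.61 and 5.91 after liposomes, whereas the MRX34 arrays, at 7.75, 7.55 and 7.72, lay above both. SNRPE, a core protein of spliceosomal particles, differed by -1.65 (SE 0.42), the cancer-testis gene CSAG1 by -1.47 and ANAPC15 (C11orf51 in the table), a subunit of the anaphase-promoting complex, by -1.07. UGT1A1, the bilirubin-conjugating enzyme, was above background on no liposome array. Its mean over the liposome arrays was at least 1.65-fold below the buffer mean, by the bound from the lowest signals above background. That bound leaves out sampling error, and the difference of -1.26 had a 95% interval of -1.97 to -0.55. Its transcript shares exons with those of other UGT1A enzymes. RPL12P1 (CICK0721Q.1 in the table), a ribosomal protein pseudogene whose parent gene is near identical, differed by -1.03 and is uncertain for that reason.

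**Figure D3:**
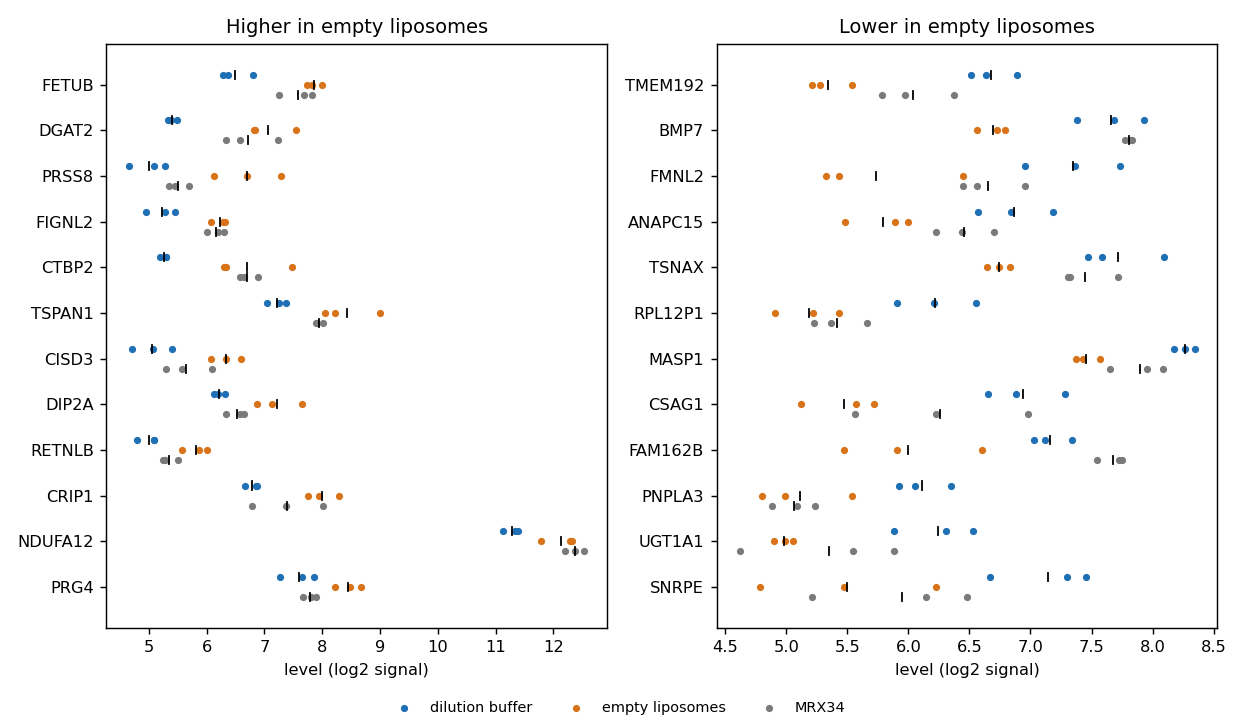
Levels (log2 signal, horizontal axis) of the 12 genes with the smallest p in each direction, with 1 point per array and a short line at the mean of each group of 3 arrays. Blue is dilution buffer, orange empty liposomes and grey MRX34, which was not part of the test. The blue and orange points do not overlap for any of the 24 genes, and in BMP7 and FAM162B the grey points lie with or beyond the blue ones.

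Genes of lipid handling, the pathways that liposomal lipid could enter, had list medians between -0.22 and 0.09 log2 units. Of 26 tested genes of triglyceride synthesis and lipid droplets, 15 were higher and 11 lower, with a median of 0.03 log2 units (46.8% of all genes were higher), and 4 had an unadjusted p under 0.05, against 5.76% of all genes. The groups did not overlap for 19.2% of the list, against 11.7%. Besides DGAT2 and PNPLA3 these were LPIN2, a phosphatidate phosphatase, and GPAT4, a glycerol-3-phosphate acyltransferase, both named after their values were seen. LPIN2 measured 8.79, 9.05 and 8.78 after buffer and 8.04, 8.23 and 8.39 after liposomes, a difference of -0.65. Members of this 1 pathway thus lay on both sides, and PLIN2, the main coat protein of hepatocyte lipid droplets, differed by 0.05 (95% interval -0.39 to 0.49). PLIN2 was bright on every array, between 12.97 and 13.40.

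Cholesterol synthesis genes are activated by the transcription factor SREBP2, which is less active when a cell gains cholesterol. Their median difference was 0.01 over 26 tested genes, 14 higher and 12 lower. CYP51A1, lanosterol demethylase, measured 9.49, 9.62 and 9.76 after buffer and 8.67, 9.08 and 8.81 after liposomes. The groups did not overlap, and the difference was -0.77. CYP51A1 was the 1 gene of the list with all liposome arrays below all buffer arrays. For 2 genes they all lay above, so 11.5% of the list did not overlap, against 11.7% of all genes. SQLE, squalene epoxidase, overlapped between the groups and differed by 0.02 (-0.44 to 0.49). For 18 of the 26 genes (69.2%) the interval lay within a 2-fold change in either direction, against 62.7% of all genes.

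Fatty acid synthesis genes had a median of -0.03 over 19 tested genes. FASN, fatty acid synthase, differed by 0.03 (-0.47 to 0.54) and SCD, stearoyl-CoA desaturase, by 0.06 (-0.37 to 0.49), whereas ME1, malic enzyme, differed by -0.78 and ELOVL5, a fatty acid elongase, by -0.67. The median was -0.07 over 18 targets of the sterol sensor LXR, where ABCA1, the cholesterol exporter, differed by 0.04 (-0.38 to 0.46). It was 0.09 over 30 genes of fatty acid oxidation, with 0 of 30 at an unadjusted p under 0.05. FABP1, liver fatty acid binding protein, differed by -0.82 in that list and overlapped between the groups.

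Of the enzymes that build and break membrane lipids, PCYT2, which makes the activated head group of phosphatidylethanolamine, measured 10.26, 10.51 and 10.57 after buffer and 9.17, 9.56 and 9.82 after liposomes. All liposome arrays lay below the buffer arrays, and the difference was -0.93 (SE 0.29). The other 21 tested genes of phospholipid synthesis held none at an unadjusted p under 0.05, and the list's median was 0.06. Among 23 tested phospholipases 7 were higher and 16 lower, and the median was -0.22. Without empty liposomes 1, whose list mean was -0.39 against 0.03 to 0.17 on the other arrays, that median was -0.06. LIPG, endothelial lipase, was above background on no liposome array and no MRX34 array. It passed the filter through the buffer arrays alone, so its lower level after liposomes is not independent of that filter. Its liposome mean was at least 1.02-fold below the buffer mean, a bound that leaves out sampling error. Sphingolipid enzymes had a median of 0.04, and SMPD4, a neutral sphingomyelinase, differed by 0.83 with overlapping groups. Apolipoprotein and lipoprotein assembly genes had a median of -0.11 over 20 tested, and 0.02 without empty liposomes 1, whose list mean was -0.53. Among them APOA5, an activator of triglyceride clearance, measured 8.48, 8.26 and 8.45 after buffer and 8.85, 9.34 and 9.07 after liposomes, a difference of 0.69 (SE 0.20). Its MRX34 arrays, at 9.13, 8.997 and 8.95, lay in the range of the liposome arrays.

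**Figure D4:**
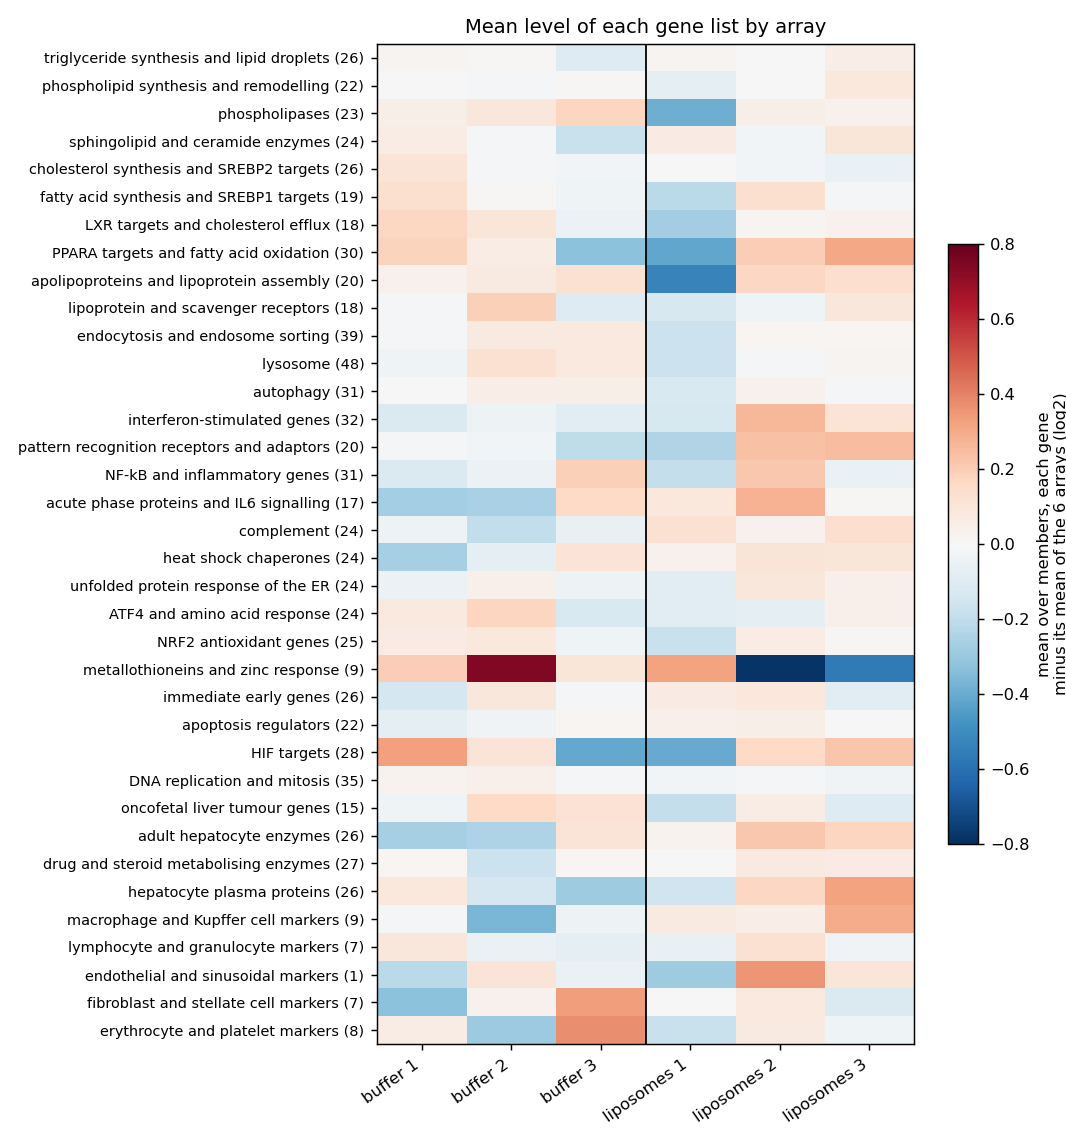
Mean level of each gene list on each control array, as the mean over tested members of a gene's log2 level minus its mean over the 6 arrays (colour scale in log2 units, clipped at 0.8 either way), with the number of tested members in brackets. The strongest colours are those of metallothioneins on dilution buffer 2 (0.74) and empty liposomes 2 (-0.79). Most other lists differ as much between arrays of a group as between the groups.

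Genes of particle uptake also had medians near 0. The median was 0.03 over 18 tested lipoprotein and scavenger receptors, -0.04 over 39 genes of endocytosis and endosome sorting, 0.00 over 48 lysosomal genes and -0.10 over 31 autophagy genes, the last being 0.01 without empty liposomes 1. Of the receptors, 9 of 27 listed genes were above background on no control array. SCARB1, the high-density lipoprotein receptor, differed by 0.25 (-0.65 to 1.15). EPN2, an endocytic adaptor, measured 7.24, 7.66 and 7.57 after buffer and 4.96, 6.91 and 7.003 after liposomes, and empty liposomes 1 was far below the rest. Its difference was -1.20, or -0.54 without that array. LAMP1, a lysosomal membrane protein, differed by 0.18 (-0.22 to 0.58), and CTSH, cathepsin H, by -0.73 with overlapping groups, or -0.39 without dilution buffer 1. In autophagy, ATG16L1, part of the complex that lipidates LC3, measured 9.23, 8.83 and 8.89 after buffer and 9.88, 9.43 and 9.69 after liposomes. Its difference was 0.68 (SE 0.22), or 0.33 by a second probe that was also above background on all 6 arrays. ATG4B, the protease that processes LC3, was above background on no liposome array. Its liposome mean was at least 1.79-fold below the buffer mean, a bound that leaves out sampling error. The difference was -1.62 (-2.59 to -0.64).

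Innate immune genes were measured at low to medium levels, and 13 of 50 listed interferon-stimulated genes were above background on no control array. Of the 32 tested, 23 were higher and 9 lower, with a median of 0.17 against -0.03 over all genes. The list held 3 genes higher and 2 lower at an unadjusted p under 0.05, against 2.74% and 3.02% of all genes. For 5 of the 32 all liposome arrays lay above all buffer arrays, against 6.11% of all genes. The groups did not overlap in either direction for 18.8% of the list, against 11.7% of all genes. IFI6, an interferon-induced mitochondrial protein, measured 8.42, 9.05 and 9.47 after buffer and 9.73, 9.65 and 9.88 after liposomes. The liposome arrays lay just above the highest buffer array, and the difference was 0.78 (SE 0.27). It was 0.51 by a second probe and 0.50 without dilution buffer 1. IRF9, the DNA-binding subunit of the interferon-activated factor ISGF3, measured 8.56, 9.19 and 8.95 after buffer and 9.51, 9.69 and 9.39 after liposomes. Its difference was 0.62 (SE 0.23), and the MRX34 arrays of both genes overlapped those of buffer, at 8.78, 8.73 and 8.35 for IFI6 and 8.62, 8.96 and 8.45 for IRF9. BST2, tetherin, overlapped between the groups, at 7.76, 6.36 and 6.64 against 6.88, 8.94 and 8.74. XAF1 and IFITM1, also interferon-induced, differed by -0.91 and -0.61. ISG15, the ubiquitin-like interferon marker, measured 10.39, 10.08 and 9.68 against 10.29, 10.29 and 10.80 and overlapped. BST2, XAF1, IFITM1 and ISG15 were named after their values were seen. The list's median was 0.31 without empty liposomes 1 and 0.09 without dilution buffer 3.

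The promoter of IFI6 is shown because interferon acts through a short DNA element, the interferon-stimulated response element, and IFI6 had the smallest p of this list. The window runs from 250 bases before to 50 after the start of the gene (RefSeq, GRCh38.p14, chr1:27672143-27672442, minus strand), and capitals mark matches on either strand to GAAA, any 2 bases and GAAA.
IFI6: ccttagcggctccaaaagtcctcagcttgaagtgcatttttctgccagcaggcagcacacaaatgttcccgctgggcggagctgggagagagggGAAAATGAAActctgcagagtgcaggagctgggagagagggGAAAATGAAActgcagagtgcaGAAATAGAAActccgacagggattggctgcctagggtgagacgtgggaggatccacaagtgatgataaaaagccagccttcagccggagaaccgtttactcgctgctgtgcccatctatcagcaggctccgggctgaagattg
The IFI6 window held 3 matches. Of 26 tested list members with a window in the table, 14 held at least 1, against 3.57% of all 35116 promoters. IRF9 and XAF1 had no match in this window, while IFITM1 and BST2 held 2 each. A match is a description of the letters and not a measured binding site.

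Pattern recognition receptors and adaptors had a median of 0.08 over 20 tested genes, and 3 of them were higher at an unadjusted p under 0.05, against 2.74% of all genes. The median was -0.07 without dilution buffer 3 and 0.20 without empty liposomes 1. TICAM1, the adaptor TRIF of the Toll-like receptors 3 and 4, measured 9.10, 9.05 and 9.11 after buffer and 10.28, 9.86 and 9.76 after liposomes. The buffer arrays were nearly equal and every liposome array lay above them, with a difference of 0.88 (SE 0.30), or 0.40 by a second probe. TIRAP, an adaptor upstream of MYD88, differed by 0.72 (SE 0.24), although its other 2 probes past the filter, both dimmer, differed by -0.19 and 0.09. IRAK1, a kinase downstream of MYD88 and named after its values were seen, differed by 0.62. MYD88 itself, at 7.93, 8.08 and 7.89 against 7.36, 7.75 and 8.17, overlapped and differed by -0.21. Of the 37 listed receptors and adaptors, 12 were above background on no control array.

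NF-kB targets and inflammatory genes had a median of -0.03 over 31 tested genes, 14 higher and 17 lower. CXCL10, a chemokine induced by interferon, measured 6.07, 6.19 and 6.41 after buffer and 6.73, 6.98 and 6.44 after liposomes, and the lowest liposome array only just exceeded the highest buffer array. Its difference was 0.49 (SE 0.21), and that of NFKBIB, an inhibitor of NF-kB, was 0.50 (SE 0.19) by 1 probe and -0.02 by another that was also above background on all 6 arrays. CXCL8, interleukin 8, differed by 0.06 (-0.81 to 0.92).

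Acute phase genes, the liver's response to interleukin 6, had a median of 0.26 over 17 tested genes, 13 higher and 4 lower. For 5 of them (29.4%) all liposome arrays lay above all buffer arrays and for 0 below, against 11.7% of all genes in either direction. CEBPD, a transcription factor of the acute phase, measured 9.78, 9.53 and 9.57 after buffer and 10.30, 10.29 and 10.12 after liposomes, a difference of 0.61 (SE 0.19). Both groups were tight and apart, and the MRX34 arrays, at 10.19, 9.98 and 9.80, lay between them in part. ITIH3, an inter-alpha-trypsin inhibitor chain, measured 5.34, 5.24 and 4.80 against 7.21, 5.65 and 5.50, and its difference of 0.99 was 0.45 without empty liposomes 1. The others of the 5 were HPX, the haem carrier hemopexin (0.73), and the near-identical orosomucoids ORM1 (0.39) and ORM2 (0.43), named after their values were seen. A2M, alpha-2-macroglobulin, differed by -1.10 with overlapping groups, and SERPINA1, alpha-1-antitrypsin, by -0.06. HAMP, the iron hormone hepcidin, followed the order of GNMT and OTC, at 5.74, 6.58 and 10.70 after buffer and 9.30, 8.61 and 8.07 after liposomes. With the GNMT and OTC level as a covariate the list's median was 0.13. Complement genes had a median of 0.17 over 24 tested, with 17 higher and 7 lower, MASP1 among the latter.

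Heat shock chaperones had a median of 0.31 over 24 tested genes, of which 15 were higher and 9 lower. At an unadjusted p under 0.05 there were 4 higher and 0 lower, against 2.74% and 3.02% of all genes. Without empty liposomes 1 the median was 0.22. HSPE1, the mitochondrial co-chaperonin, measured 12.30, 12.16 and 12.73 after buffer and 13.39, 13.20 and 12.86 after liposomes, a difference of 0.75 (SE 0.23). HSPA1B, the inducible HSP70, measured 10.26, 10.82 and 10.79 after buffer and 11.27, 11.23 and 11.30 after liposomes, a difference of 0.65 (SE 0.21). Its near-identical copy HSPA1A overlapped between the groups, at 9.94, 10.50 and 10.80 against 10.61, 10.74 and 10.92, and probes may not tell these copies apart. On the MRX34 arrays HSPA1B stood below every control array, at 9.76, 10.09 and 9.93. HSPA8, the constitutive HSP70, measured 12.87, 12.73 and 12.59 against 13.23, 12.94 and 13.51, and HSPH1, its exchange factor, differed by 0.49. Both were named after their values were seen. HSPD1, the partner of HSPE1 in the mitochondrial chaperonin, overlapped and differed by -0.51, and HSP90AA1 by -0.25. Dilution buffer 1 had the lowest list mean, -0.27, and dilution buffer 3 the highest, 0.11, with the liposome arrays between 0.03 and 0.11. With the GNMT and OTC level as a covariate the median was 0.14.

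The HSPA8 promoter is shown because heat shock factors bind repeats of GAA and its inverse, and because HSPA8 alone of the 4 genes with an unadjusted p under 0.05 had a match. The window is the same as for IFI6 (RefSeq, GRCh38.p14, chr11:123062087-123062386, minus strand), and capitals mark 3 such units in turn, each 2 bases from the next (GAA, TTC and GAA, or TTC, GAA and TTC), on either strand.
HSPA8: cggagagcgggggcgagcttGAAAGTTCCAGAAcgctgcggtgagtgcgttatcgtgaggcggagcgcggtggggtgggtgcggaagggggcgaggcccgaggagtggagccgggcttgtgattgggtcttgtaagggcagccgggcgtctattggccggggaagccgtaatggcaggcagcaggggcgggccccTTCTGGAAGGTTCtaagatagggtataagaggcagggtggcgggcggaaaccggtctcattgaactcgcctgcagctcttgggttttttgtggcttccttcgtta
The window held 2 matches. Of 22 tested chaperones with a window, 5 held at least 1, against 0.49% of all promoters, while HSPE1, HSPA1B and HSPH1 had none in it.

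Metallothioneins, small proteins that bind zinc and copper and are induced by zinc through the metal-responsive factor MTF1, had the lowest median of the lists. It was -0.70 log2 units over 9 tested genes, of which 1 was higher and 8 lower, and 2 were lower at an unadjusted p under 0.05, against 3.02% of all genes. The median kept its sign in all 27 alternative settings, between -1.39 and -0.47. The liposome arrays were not alike, however. MT2A, an abundant metallothionein, measured 10.68, 11.61 and 10.23 after buffer and 11.20, 8.34 and 9.55 after liposomes. Empty liposomes 1 lay with the buffer arrays, and the other 2 liposome arrays lay below all of them. The same arrangement held for MT1X, at 9.83, 10.10 and 8.88 against 9.89, 7.17 and 8.00, and for MT1E, at 7.67, 8.48 and 8.26 against 8.45, 6.65 and 6.89.

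MT1G measured 7.81, 8.41 and 7.52 after buffer and 7.63, 5.97 and 6.32 after liposomes, a difference of -1.28 (SE 0.40), with empty liposomes 1 inside the buffer range. Its MRX34 arrays, at 7.47, 7.67 and 7.62, lay close to that range. SLC30A1, a zinc exporter that MTF1 also controls, was the 1 member whose groups did not overlap, at 8.43, 8.62 and 8.25 against 8.05, 7.66 and 7.61. Its difference was -0.66 (SE 0.21), or -1.22 by a second probe, and its MRX34 arrays were the highest of all, at 8.78, 8.98 and 9.10. MTF1 itself differed by 0.16 and overlapped. MT1A went its own way, at 10.05, 11.08 and 12.41 after buffer and 11.95, 10.68 and 10.58 after liposomes. Like GNMT and OTC it was brightest on dilution buffer 3 and empty liposomes 1 in their groups. Metallothionein genes are near identical in sequence, so probes may take signal from more than 1 of them. MT1A, MT1E, MT1X, MT2A and MTF1 were named after their values were seen. The list's mean level was 0.19, 0.74 and 0.10 on the buffer arrays and 0.32, -0.79 and -0.56 on the liposome arrays, and without empty liposomes 1 the median was -0.80. With the GNMT and OTC level as a covariate it was -0.64.

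**Figure D5:**
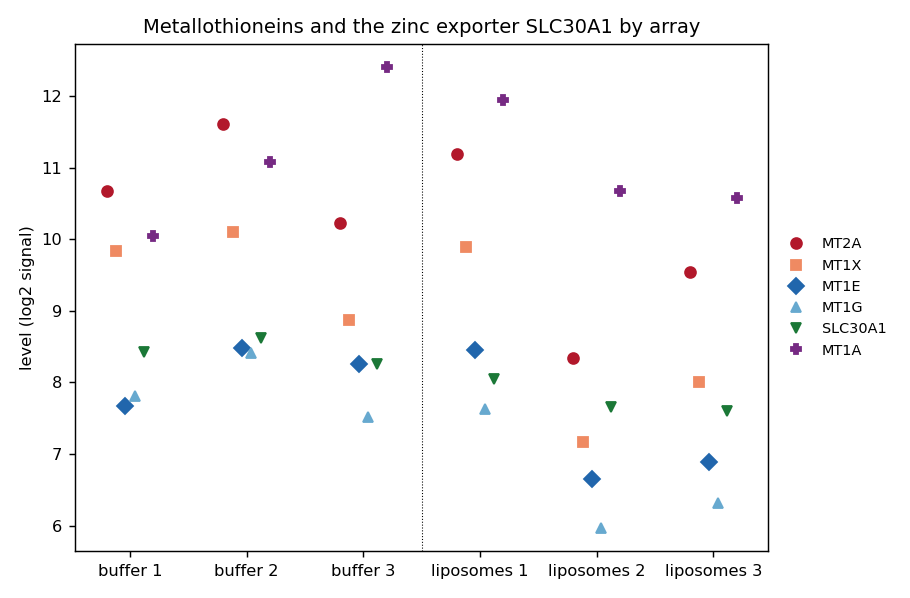
Level (log2 signal, vertical axis) of 5 metallothioneins and SLC30A1 on each of the 6 control arrays, 1 symbol per gene. On empty liposomes 2 and 3, MT2A, MT1X, MT1E and MT1G lie below all buffer arrays, and on empty liposomes 1 they lie within the buffer range.

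Promoters of 3 members are shown because MTF1 acts through a short core, the metal response element, and these genes share it. The windows run from 250 bases before to 50 after the start (RefSeq, GRCh38.p14): MT2A at chr16:56608334-56608633, plus strand; MT1X at chr16:56682220-56682519, plus strand; SLC30A1 at chr1:211579112-211579411, minus strand. Capitals mark TGCACNC or TGCGCNC on either strand.
MT2A: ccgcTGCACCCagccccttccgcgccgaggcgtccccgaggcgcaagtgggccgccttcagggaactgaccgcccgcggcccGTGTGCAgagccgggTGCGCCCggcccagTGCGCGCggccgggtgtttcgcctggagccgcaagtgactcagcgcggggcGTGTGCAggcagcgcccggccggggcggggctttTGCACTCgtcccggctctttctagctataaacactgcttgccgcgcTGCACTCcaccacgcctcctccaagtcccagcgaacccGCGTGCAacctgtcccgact
MT1X: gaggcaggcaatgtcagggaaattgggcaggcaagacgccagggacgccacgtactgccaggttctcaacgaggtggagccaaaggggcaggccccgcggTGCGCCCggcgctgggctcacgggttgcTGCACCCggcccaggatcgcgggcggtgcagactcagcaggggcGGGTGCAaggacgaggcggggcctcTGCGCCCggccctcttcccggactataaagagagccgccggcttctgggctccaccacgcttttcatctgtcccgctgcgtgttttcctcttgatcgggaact
SLC30A1: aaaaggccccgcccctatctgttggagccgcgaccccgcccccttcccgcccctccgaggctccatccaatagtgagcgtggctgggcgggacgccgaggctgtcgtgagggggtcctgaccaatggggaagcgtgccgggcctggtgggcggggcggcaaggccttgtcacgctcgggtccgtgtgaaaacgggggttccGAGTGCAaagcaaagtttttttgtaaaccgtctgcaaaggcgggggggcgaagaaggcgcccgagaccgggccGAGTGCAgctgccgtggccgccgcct
MT2A held 8 matches, MT1X 4 and SLC30A1 2. Of 5 tested members with a window, 4 held at least 1, and MTF1 held none. Of all 35116 promoters 29.6% held at least 1 match to this short core. A match is a description of the letters and not a measured binding site.

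Other stress programmes had medians between -0.03 and 0.14. The median was 0.05 over 24 genes of the unfolded protein response, where HSPA5, the chaperone BiP, differed by -0.01 (-0.60 to 0.57), and 20 of 24 intervals (83.3%) lay within a 2-fold change. It was -0.03 over 24 targets of ATF4, the amino acid stress factor, and 0.00 over 25 antioxidant genes of NRF2. NQO1, a classic NRF2 target, differed by -0.17 (-0.62 to 0.27). HMOX1, haem oxygenase 1, measured 9.95, 9.71 and 9.47 after buffer and 9.93, 10.31 and 11.03 after liposomes, and the groups overlapped. Immediate early genes had a median of 0.14, and apoptosis regulators 0.00, with APAF1, the apoptosome scaffold, at 0.79 (SE 0.30). A second, dimmer probe of APAF1 differed by 0.26. The executioner caspase CASP6 differed by -0.83 (SE 0.24) through its brightest probe, while 2 other probes past the filter differed by -0.19 and 0.05.

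Proliferation and hypoxia genes describe the state of the tumour. DNA replication and mitosis genes had a median of 0.00 over 35 tested genes, 17 higher and 18 lower, and for 30 (85.7%) the interval lay within a 2-fold change. TOP2A, topoisomerase II alpha, measured 11.60, 11.46 and 11.41 against 11.75, 11.42 and 11.65. RRM2, a ribonucleotide reductase subunit, differed by -1.01 and KIF11, a mitotic kinesin, by -0.64, both without overlap. Targets of the hypoxia factor HIF had a median of -0.05, or 0.13 without empty liposomes 1, and their list mean was 0.33, 0.11 and -0.41 on the buffer arrays and -0.40, 0.16 and 0.22 on the liposome arrays. Dilution buffer 3 and empty liposomes 1, the arrays with the highest GNMT and OTC levels, were thus the lowest for HIF targets. They were also the dimmest of the 6 arrays, with mean background-subtracted intensities of 249 and 163 against 325 to 616 on the others. The part of array brightness in this order was not tested.

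Genes of differentiated liver gave no called difference. Adult hepatocyte enzymes had a median of 0.17 over 26 tested genes and plasma proteins 0.19 over 26. Without dilution buffer 3 these were 0.11 and 0.07, and with the GNMT and OTC covariate 0.14 and 0.33, while drug and steroid metabolising enzymes stood at 0.04 over 27. F2, prothrombin, overlapped between the groups, at 8.69, 8.67 and 9.10 against 9.97, 10.36 and 8.77. Its difference of 0.88 was 0.55 without empty liposomes 2 and 1.34 without empty liposomes 3.

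Markers of the host cells that take up particles were mostly dim or not above background, on arrays built for human transcripts. Of 19 macrophage and Kupffer cell markers, 9 were tested, 8 higher and 1 lower, with a median of 0.29 and 0 of 9 at an unadjusted p under 0.05. The list mean was between -0.36 and -0.01 on the buffer arrays and between 0.05 and 0.30 on the liposome arrays. The listed genes CLEC4F, MARCO, TIMD4 and ADGRE1 were above background on 0 of 6 arrays. VSIG4, from the same list, was among the 9 tested. CD14, the endotoxin co-receptor, measured 7.72, 7.33 and 7.52 after buffer and 7.42, 8.35 and 8.19 after liposomes and overlapped, as did TYROBP. Of 16 endothelial markers only PECAM1 was tested, at a difference of 0.11 (-0.38 to 0.60). Of 19 lymphocyte and granulocyte markers 7 were tested, with a median of -0.15 that was 0.01 without empty liposomes 1. PTPRC, the pan-leukocyte antigen CD45, was above background on 0 of 6 arrays. Fibroblast and stellate cell markers had a median of -0.15 over 7 tested, with PDGFRA at -0.81 and PDGFRB at 0.45, while DCN, decorin, at 5.67, 7.28 and 9.40 against 9.67, 7.75 and 8.37, was again highest on dilution buffer 3 and empty liposomes 1. Erythrocyte and platelet markers had a median of -0.11 over 8 tested. Whether murine cells added to these signals was not tested.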

How the data were processed

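Gene expression was measured on Illumina arrays of Hep3B tumours, 3 per group; this comparison used 6 of them and the fit used all 9. The deposited table holds intensity values from 50.3 to 47789, which by their identical distributions had been quantile normalized with the background left in, each followed by a detection p-value per the file headers. A second deposited table holds background-subtracted intensity values that were not normalized between arrays; their column medians lay between 8.6 and 13.3. The array software and the normalization method were not given in the sources used here.

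For this comparison limma 3.58.1 (R 4.3.3) corrected the background by normexp, reading the level of the negative controls off the detection p-values. After an offset of 16, which shrinks differences of dim probes, signals were quantile normalized and log2 transformed. A probe was kept with a detection p under 0.05 on at least 3 of 9 arrays, and the brightest probe stood for each of 15388 genes. Of 47322 probes, 92 spike-ins, 3270 without a symbol and 54 with a date in place of a symbol were left out. Of the 43906 named, 27040 had a current symbol in RefSeq (GRCh38.p14), 4625 a synonym and 12241 kept the table's name. Group means were fitted with limma over all genes, two-sided, with Benjamini-Hochberg adjustment. The fit was also run on simulated data with independent noise and no outlying array, so that run does not cover the array differences described above. The number of arrays limits the precision.

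Genes named are the 12 with the smallest p in each direction, passing over placeholder names (0 higher, 11 lower), up to 2 of smallest p in each of 36 lists, and AFP, GPC3, GNMT and OTC always. A few genes that this rule names are not reported here. Any other gene was chosen after its values were seen. The genes, lists and tests were chosen with earlier results of these data known. Alternatives changed background correction, scaling, table, filter, probe rule, variance model, array weights, pairing and covariates, and left out each array.

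The labels do not say if equal replicate numbers of the 2 groups pair the arrays. Correlations of the deviations from the group means were -0.19, 0.30 and -0.32 for equal numbers. For unequal numbers they lay between -0.29 and 0.34, a similar range, so these values cannot decide it.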

Additional observations from a re-analysis of the deposited data

How the results depend on the processing

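In 26 of 27 alternative settings 0 genes were called. The exception was limma with array weights, which gave empty liposomes 1 a weight of 0.262 and dilution buffer 2 a weight of 8.12. It called 6 genes, FETUB and DGAT2 higher and TMEM192, FMNL2, MT1G and LOC441019 lower (smallest adjusted p 0.0396), with 1782 higher and 1900 lower genes at an unadjusted p under 0.05. LOC441019 is outside the naming rule. Other counts at an unadjusted p under 0.05 moved by over 1.5 times as follows. There were 258 higher genes with median scaling, 934 higher and 842 lower without a filter, 242 lower with detection on all 6 arrays and 756 lower with every probe kept, where fewer or more features were tested. Without dilution buffer 3 and empty liposomes 1 together 210 were lower. Leaving out 1 array gave 199 to 834 higher and 222 to 1199 lower genes, and 0 called each time. With replicate number as a block over 9 arrays, 592 genes were higher and 701 lower; over the 6 control arrays, 325 and 445, with 0 called in both.

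Of 633 comparisons of the 24 genes of smallest p with an alternative, 1 changed sign: DIP2A, at -0.126 as the mean over its probes. PGK1 was -0.0105 under that rule. OTC was -0.105 with the GNMT and OTC covariate, which contains OTC itself, so that value is no check of OTC. Over fits leaving out 1 array, GNMT ran from -0.0600 to 3.47, OTC from -0.104 to 2.47 and PECAM1 from -0.0407 to 0.280. List medians moved beyond the spread between arrays in 74 of 970 comparisons. The cause of these changes was not tested. Signal near background limits the dim genes, 16 of which were above background on all liposome arrays and no buffer array and 90 the other way round. Such genes passed the filter by 1 group alone. Empty liposomes 1 also had the fewest named probes above background, 31.2% against 37.6% to 46.6% on the other control arrays. These counts are therefore no measure of genes gained or lost with the carrier.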
